A study of Danio rerio with 33 samples.

Results

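Small RNA of adult wild type zebrafish (Singapore strain, bought from a local supplier, with no treatment) was sequenced, and reads were counted on known mature miRNAs. Described here are the 2 libraries labelled heart, set against 3 libraries each of male brain, male gut and male liver, which together are 11 of the 32 libraries analysed. The sex of the heart fishes is not given in the labels, and the study's text states that heart was taken from males. Each library held RNA pooled from several fishes, and which fishes went into which tissue is not stated. The study's text states that a further heart replicate failed to group with the others and was removed, and it is not analysed here. All 238 of the 247 known miRNAs that had a count in any library were tested. The main comparison weighted the 3 tissues equally, as the mean of their log2 levels, so that a difference against the mean can hide a tissue on either side of it, and each tissue was therefore also compared singly.

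MiRNAs are short RNAs that bind mRNAs through a seed near their 5′ end and lower their translation or stability. Some are made almost entirely by one cell type, so a tissue can be read from a handful of them. In the vertebrate heart, miR-1 and the miR-133 family are made by cardiac and skeletal muscle, miR-499 is encoded within a myosin heavy chain gene, and miR-206 belongs to skeletal muscle. In mammals, miR-1 is among the most abundant miRNAs of the heart. The miR-183, miR-96 and miR-182 cluster is known from photoreceptors and hair cells, miR-204 from retinal pigment epithelium and lens, and miR-184 from lens and cornea. MiR-192, miR-194 and miR-459 are intestinal in fish, miR-122 marks hepatocytes, and the miR-10 and miR-196 families lie in Hox clusters and follow the position of a tissue along the body axis.

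Total counts were 10136211 and 11732555 in the libraries labelled heart, and ranged from 979781 to 4497770 in the 9 libraries of the 3 tissues, so that low miRNAs are better measured in heart than in the tissues. Levels below are the deposited normalized counts, which are the counts of a library multiplied by a single factor. Replicates correlated at 0.992 to 0.997 within each group across miRNAs on the log2 scale, and every pair differed by more than sampling noise (chi-square of 33.5 to 363 per degree of freedom). Nothing in the labels ties replicates to separate animals beyond their being separate samples, so p-values measure the spread between pools. That spread was estimated over all 32 libraries, not from the 11 compared libraries alone. Near-identical miRNAs, among them miR-126a-5p and miR-126b-5p, the miR-133 members and the miR-203 members, may share reads, and their single values are uncertain. A lower level in a tissue sample can come from fewer cells of a type or from less of the miRNA per cell, which bulk libraries cannot tell apart.

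The label was first checked against miRNAs known from heart and from other organs, and the check was mixed. The lists were chosen with earlier results of these data known, so the check is not independent of the data. Of the 8 muscle miRNAs listed, 7 were higher in the libraries labelled heart than in the mean of the 3 tissues, where 24.4% of all 238 miRNAs were. The 8 made up 1.07% ± 0.136 of the counts (SD, n = 2), against 0.136% ± 0.0257 in male brain, 0.0575% ± 0.00917 in male gut and 0.0865% ± 0.0276 in male liver (SD, n = 3 each). MiR-1 made up, on average, 0.0327% of the counts of the libraries labelled heart. The 6 miRNAs of the sensory and eye list made up 13.7% ± 0.849 of the counts in the libraries labelled heart (SD, n = 2), against 0.515% ± 0.0349 in male brain, 0.0862% ± 0.00504 in male gut and 0.208% ± 0.0408 in male liver (SD, n = 3 each). In the 3 eye libraries, which are not part of the comparison, the same 6 made up 15.3% ± 0.755 and the muscle list 0.151% ± 0.0124 (SD, n = 3). Markers of eye, summed over the 6, were thus present in both libraries labelled heart at a level near that of eye, and the label is written as "labelled heart" throughout for this reason. The largest of the 6 were miR-182-5p and miR-204, at 7.36% and 5.44%, against 6.86% and 6.26% in eye. MiR-96 was not near eye, at 0.368% against 1.68%. Of the 58 miRNAs called higher than the mean of the 3 tissues, 43 also had a log2 fold change above 1 in eye. The value for eye is over the same mean and is a cut without a test. How many of all 238 miRNAs pass that cut was not counted, so the 43 cannot be read as an excess. Set directly against eye, the libraries labelled heart had 10 of the 238 miRNAs called higher and 1 called lower. The part of the eye markers in the other differences was not tested. Leaving out either library labelled heart left the other with the same markers.

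**Figure D1:**
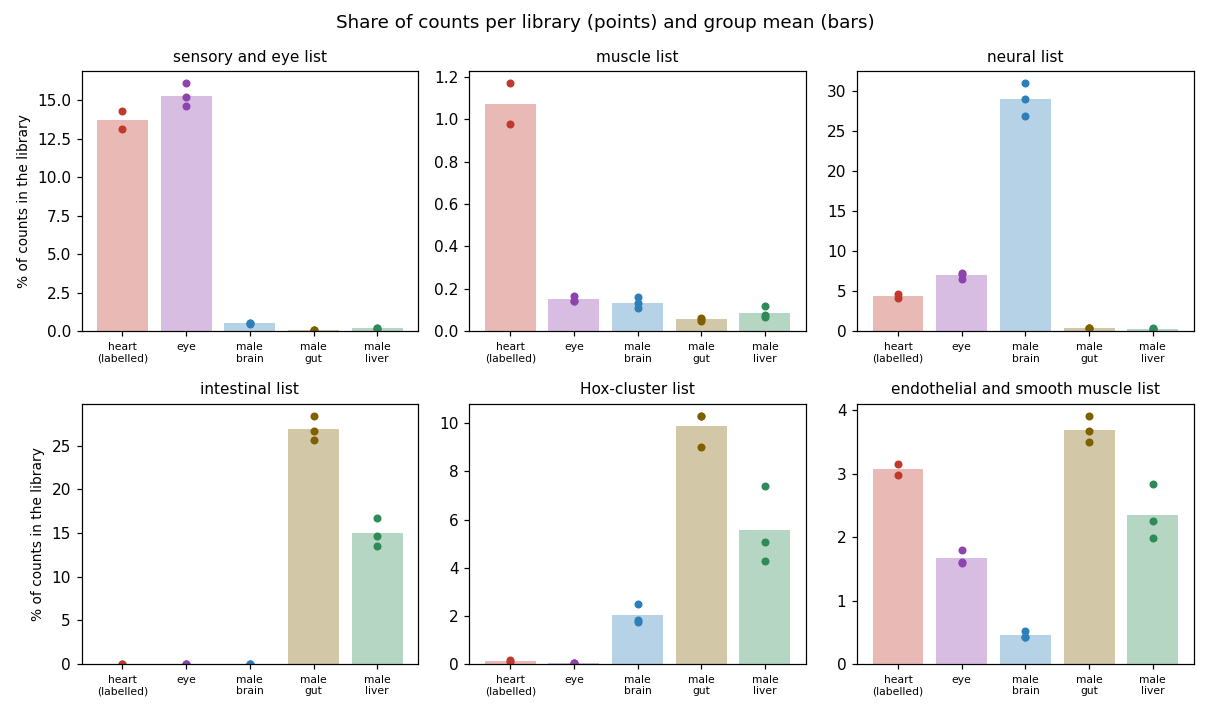
Percent of the counts of each library (vertical axis) on 6 lists of miRNAs, in the libraries labelled heart, eye, male brain, male gut and male liver; bars are group means and points single libraries. The sensory and eye list took 13.7% in the libraries labelled heart and 15.3% in eye, against at most 0.515% in the 3 tissues, while the muscle list took 1.07% in the libraries labelled heart and 0.151% in eye.

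The comparison itself asks which miRNAs set heart apart from other male organs. Against the mean of male brain, gut and liver, 58 miRNAs (24.4% of 238) were higher in the libraries labelled heart and 32 (13.4%) were lower, at an adjusted p of at most 0.05 for a log2 fold change beyond 1. The median log2 fold change over all 238 was 0.20. Against male brain, 68 (28.6%) were higher and 67 (28.2%) lower. Against male gut, 62 (26.1%) were higher and 52 (21.8%) lower. Against male liver, 68 (28.6%) were higher and 45 (18.9%) lower. Higher than in each of the 3 tissues were 24 miRNAs (10.1%), and 17 (7.14%) were lower than in each.

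Those counts depended on the scaling. With the size factors of DESeq2 in edgeR, all log2 fold changes against the mean moved by a median of −0.32, and 41 miRNAs were higher and 48 lower. With library size alone they moved by 0.36, and 77 were higher and 28 lower. The count higher than male brain fell to 45 with size factors, to 43 without any 1 of the male gut libraries and to 45 without heart replicate 1. Without male gut replicate 1, 2 or 3, the log2 fold changes against brain moved by the same median, −0.505. With the 11 compared libraries alone they moved by −0.506. These refits thus share a change of scale and are not separate checks. Of the calls against the mean, 37 of the 58 higher and 28 of the 32 lower remained under all 19 refits. Of the 25 calls lost in any of these 19, 3 had a log2 fold change of 2 or more. The 19 were other scalings, a filter, the 11 compared libraries alone, other tests, the replicate block and each compared library left out. They do not include a stricter adjusted p, a tissue left out of the mean or the arithmetic mean. Leaving male brain, gut or liver out of the mean lost 11, 12 and 20 calls, in that order. Against the arithmetic mean, the sign turned for 7 of the 58 higher.

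The calls against the mean were then split by tissue. Of the 58 higher, 24 were higher than each tissue, 12 were higher than gut and liver without a call against brain, and 8 were higher than gut and liver and lower than brain. Of the 32 lower, 17 were lower than each tissue and 12 were lower than gut and liver without a call against brain. Of the 148 not called against the mean, 95 were called against at least 1 tissue.

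**Figure D2:**
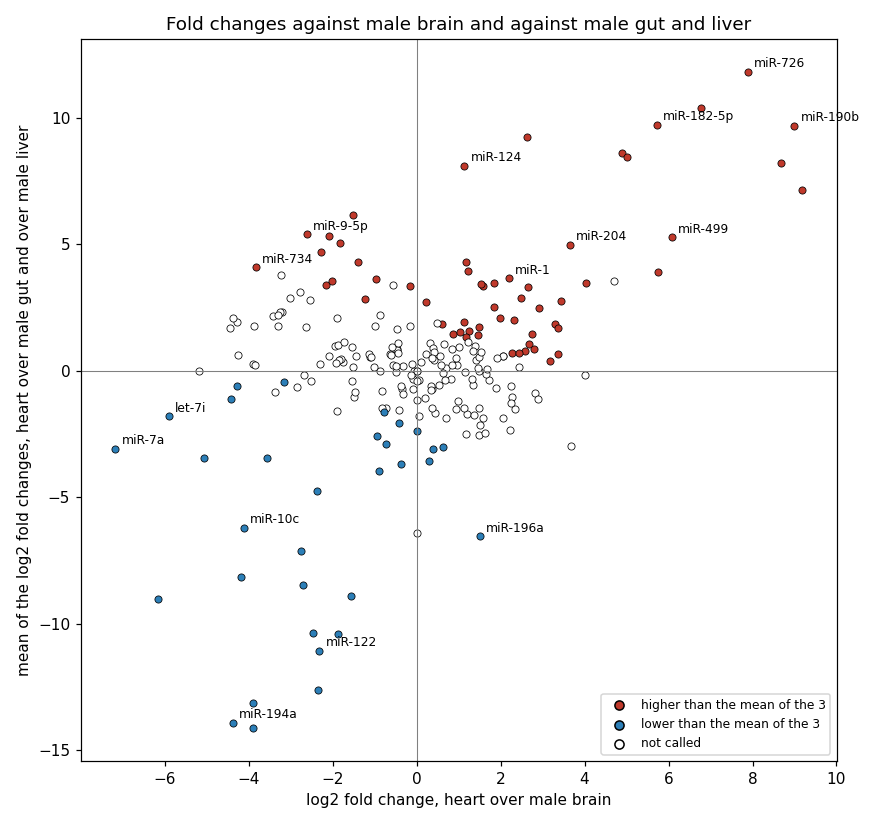
Each point is 1 of the 238 miRNAs, placed by its log2 fold change in the libraries labelled heart over male brain (horizontal) and by the mean of its log2 fold changes over male gut and over male liver (vertical); filled points were called against the mean of the 3 tissues. MiR-726, miR-182-5p and miR-499 lie far above 0 on both axes, miR-9-5p and miR-734 lie above 0 on the vertical and below 0 on the horizontal axis, and miR-194a, miR-122 and miR-10c lie below 0 on both.

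Among the muscle miRNAs, miR-499 had the largest difference. Its levels were 1848 and 1600.4 in the libraries labelled heart, against 28.2, 23.0 and 24.9 in male brain, 15.2, 10.2 and 13.2 in male gut and 88.9, 254 and 110.3 in male liver (log2 fold change 5.55, SE 0.27, adjusted p = 2.88e-15). The groups did not overlap, and male liver, the nearest, was lower by a log2 difference of 3.52 (adjusted p = 6.03e-08). In eye its levels were 36.4, 39.1 and 46.3, so that this miRNA had a heart to eye ratio of 42.4.

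MiR-133a-3p, which acts with miR-1 in muscle growth and contraction, was the most abundant of the list. It had 6328 and 5579 in the libraries labelled heart, against 1091, 976 and 771 in male brain, 673, 528 and 644 in male gut and 524, 778 and 465 in male liver (log2 fold change 3.09, SE 0.24, adjusted p = 2.87e-09). All 9 tissue libraries lay below both libraries labelled heart. The other arm, miR-133a-5p, was low at 9.44 and 7.48 in the libraries labelled heart and at 2.71, 1.61 and 1.17 on average in male brain, gut and liver, and was also higher (log2 fold change 2.30, adjusted p = 0.000412).

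MiR-1 reached only 268 and 268 in the libraries labelled heart, against 58.4, 56.5 and 59.5 in male brain, 24.8, 19.3 and 24.3 in male gut and 17.1, 25.6 and 16.4 in male liver (log2 fold change 3.18, SE 0.15, adjusted p = 8.49e-14). The libraries labelled heart thus held more miR-1 than every tissue library and, in counts, less miR-1 than miR-133a-3p, which neighbours it in the genome. Counts of different miRNAs also depend on ligation of the adapters, so the order of 2 miRNAs within a library is a comparison of counts, not of molecules.

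MiR-206, the skeletal muscle member, had 28.2 and 24.2 in the libraries labelled heart, against 16.1, 9.20 and 9.29 in male brain, 2.09, 2.68 and 1.10 in male gut and 0.329, 2.92 and 1.82 in male liver (log2 fold change 3.03, SE 0.33, adjusted p = 9.62e-07). It was not called over brain alone (log2 fold change 1.23, adjusted p = 0.169), and eye was higher at 42.8, 47.3 and 41.5. MiR-133b-3p averaged 682 in the libraries labelled heart and 189, 59.1 and 64.8 in male brain, gut and liver (log2 fold change 2.93, adjusted p = 3.24e-08). MiR-133c averaged 107 in the libraries labelled heart and 35.6, 10.05 and 10.7 in male brain, gut and liver, and 160.0 in eye (log2 fold change 2.76, adjusted p = 4.06e-07). MiR-133b-5p had 1 and 2 counts in the libraries labelled heart and no more than 1 in any tissue library, and no fold is given. The median log2 fold change of the 8 muscle miRNAs was 2.98, beside 0.20 over all miRNAs. Of the 8, 6 were higher than each tissue, where 10.1% of all miRNAs were.

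MiR-736, which is on no list, behaved like them in these libraries. Its levels were 192 and 169.5 in the libraries labelled heart, against 19.5, 21.0 and 13.7 in male brain, 72.8, 41.3 and 60.6 in male gut and 74.4, 45.3 and 31.0 in male liver (log2 fold change 2.27, SE 0.24, adjusted p = 1.28e-05), and 42.8, 41.6 and 35.7 in eye. Both libraries labelled heart were above every tissue and eye library.

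**Figure D3:**
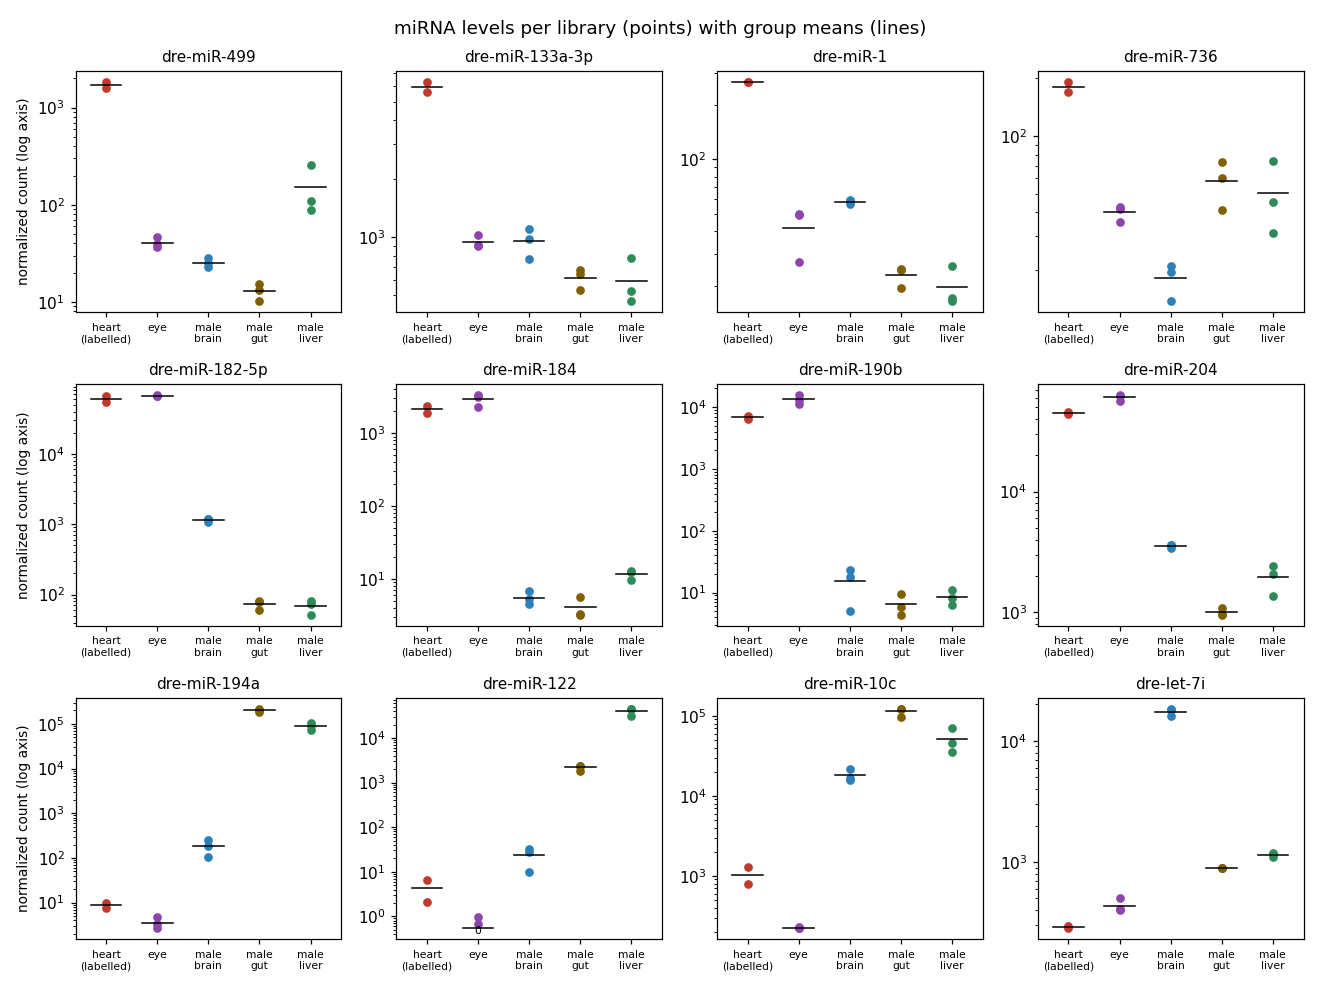
Normalized counts (log axis) of 12 miRNAs in every library labelled heart, of eye, male brain, male gut and male liver; points are libraries and lines group means, and a 0 at the foot of a panel marks a library without a count. The top row (miR-499, miR-133a-3p, miR-1 and miR-736) was high in the libraries labelled heart and low in eye, the middle row (miR-182-5p, miR-184, miR-190b and miR-204) was high in both, and the bottom row (miR-194a, miR-122, miR-10c and let-7i) was low in both.

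The largest differences of the comparison were not among muscle miRNAs. All 6 sensory and eye miRNAs were higher in the libraries labelled heart than in each of the 3 tissues, where 10.1% of all miRNAs were. The median log2 fold change of the 6 was 7.87, or 7.84 with tissues of 3 counts or fewer set at 3 counts.

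MiR-182-5p was the third most abundant miRNA of the libraries labelled heart, with 6.75% to 7.98% of the counts. Its levels were 54233 and 66672, against 1189, 1192 and 1067 in male brain, 79.4, 80.4 and 59.5 in male gut and 72.4, 80.4 and 52.0 in male liver (log2 fold change 8.39, SE 0.20, adjusted p = 5.44e-23). Eye had 68144, 65455 and 65422, a range that holds the higher of the libraries labelled heart. Its neighbour miR-183 had 2052 and 2319 in the libraries labelled heart, against 26.9, 17.7 and 16.5 in male brain, 1.49, 0 and 0 in male gut and 3.62, 3.65 and 0.912 in male liver (log2 fold change 9.20, SE 0.23, adjusted p = 1.87e-22), and 2021, 1836 and 1746 in eye.

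MiR-96, the other member of this cluster, stood apart from its neighbours. It had 2797 and 3245 in the libraries labelled heart, against 106, 98.5 and 80.0 in male brain, 7.76, 6.43 and 5.51 in male gut and 10.5, 7.31 and 13.7 in male liver (log2 fold change 7.32, SE 0.19, adjusted p = 6.32e-22), and 16510, 15839 and 16551 in eye. Its heart to eye ratio was 0.185, where miR-182-5p had 0.911 and miR-183 had 1.17. The other arm miR-182-3p had 541 and 519 counts in the libraries labelled heart, against 2, 2 and 6 in male brain, 0 in all male gut libraries and at most 1 in male liver.

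MiR-204 had 43630 and 45581 in the libraries labelled heart, against 3611, 3410.3 and 3636 in male brain, 1083, 954 and 974 in male gut and 2394, 2077 and 1368 in male liver (log2 fold change 4.55, SE 0.16, adjusted p = 8.75e-18), and 63004, 56940 and 61672 in eye. It was the fifth most abundant miRNA of the libraries labelled heart. MiR-184 had 2354 and 1903 in the libraries labelled heart, against 6.72, 5.26 and 4.43 in male brain, 5.67, 3.22 and 3.31 in male gut and 9.54, 12.4 and 12.8 in male liver (log2 fold change 8.37, SE 0.21, adjusted p = 1.87e-22), and 3169.9, 3324 and 2283 in eye. For both, the libraries labelled heart lay far above every tissue library and near eye.

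The miRNA with the largest log2 fold change fitted was miR-726. It had 28660 and 39852 counts in the libraries labelled heart, against 17, 18 and 46 in male brain, 2, 0 and 0 in male gut and 3, 2 and 2 in male liver, so that only its difference from male brain (log2 fold change 7.89, adjusted p = 5.31e-19) rests on counts above 3. MiR-729 had 2131 and 2537 counts in the libraries labelled heart and at most 4 in any tissue library. MiR-190b, a member of the miR-190 family, had levels of 6370.4 and 7235 in the libraries labelled heart, against 23.5, 17.7 and 5.07 in male brain, 9.55, 5.90 and 4.41 in male gut and 11.2, 8.04 and 6.38 in male liver (log2 fold change 9.46, SE 0.25, adjusted p = 1.87e-22). Eye had 3406, 249 and 13344 of miR-726, miR-729 and miR-190b on average, all above the libraries labelled heart, at 2556, 175 and 6803.

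Lesser differences of the same kind were found for further miRNAs that were higher than each tissue. MiR-725 averaged 361 in the libraries labelled heart and 22.7, 16.5 and 59.2 in male brain, gut and liver (log2 fold change 3.67, adjusted p = 1.25e-13). MiR-455b averaged 77.4 in the libraries labelled heart and 7.60, 15.5 and 8.74 in male brain, gut and liver (log2 fold change 2.99, adjusted p = 1.36e-11). MiR-135b averaged 585 in the libraries labelled heart and 94.9 in male brain, with at most 4 counts in any gut or liver library. Eye averaged 519, 99.7 and 712 of miR-725, miR-455b and miR-135b, each above the average of the libraries labelled heart.

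The 24 miRNAs that were higher than each tissue can be ordered by how the libraries labelled heart stood to eye. The ratio of the means was above 2 for 6 of them, namely miR-499, miR-133a-5p, miR-1, miR-133a-3p, miR-736 and miR-133b-3p. It was from 0.5 to 2 for 17, and below 0.5 for miR-96. Apart from miR-736, all with a ratio above 2 are on the muscle list.

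**Figure D4:**
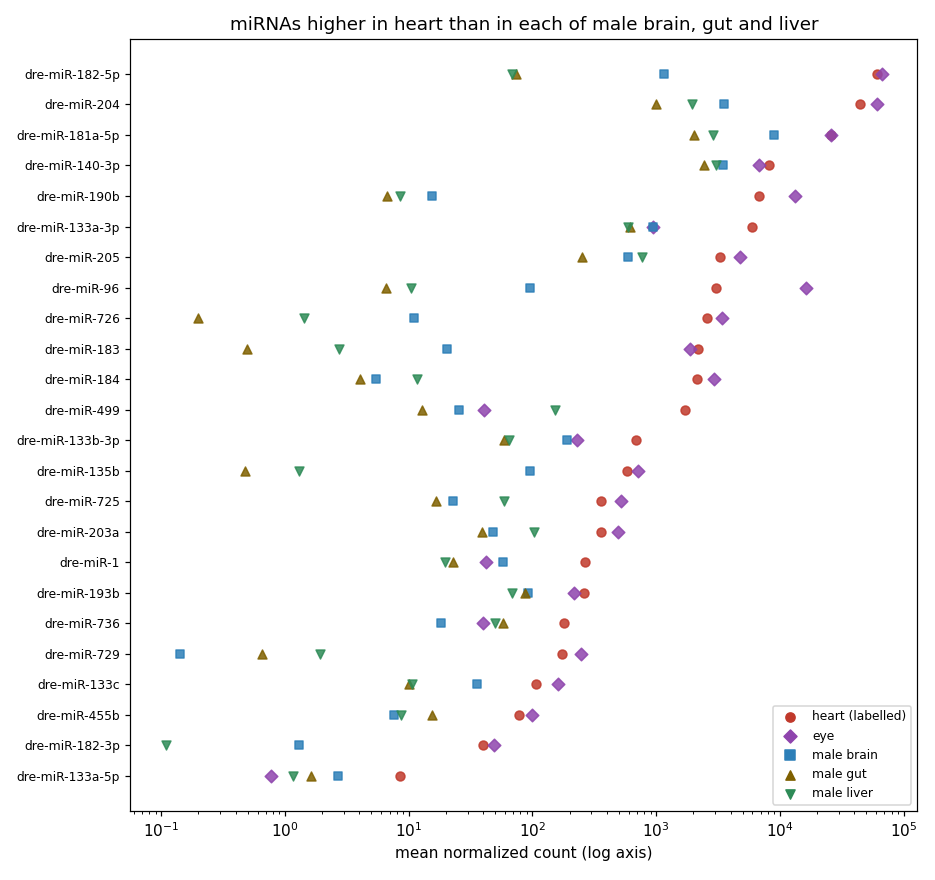
Mean normalized count (log axis) of the 24 miRNAs that were higher in the libraries labelled heart than in each of the 3 tissues, in the libraries labelled heart, eye, male brain, male gut and male liver; a group without a count has no mark. The marks of the libraries labelled heart and of eye lie close together for most rows, from miR-182-5p at 60452 and 66340 downward, and apart for miR-499 at 1724 and 40.6, miR-133a-3p at 5954 and 942 and miR-1 at 268 and 41.8.

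The miR-181 family, known from lymphocytes and retina among other tissues, was abundant and higher. MiR-181b had 48141 and 56346 in the libraries labelled heart, against 20863, 23867 and 24896 in male brain, 2104, 1977 and 2123 in male gut and 3599.9, 3301 and 3265 in male liver (log2 fold change 3.26, SE 0.14, adjusted p = 9.52e-15). It was not called over brain alone (log2 fold change 1.17, adjusted p = 0.119), although the libraries did not overlap. MiR-181a-5p averaged 25978 in the libraries labelled heart and 8955, 2035 and 2904 in male brain, gut and liver, and was higher than each (log2 fold change 2.79 over the mean, adjusted p = 2.54e-14). The other arm of its hairpin, miR-181a-3p, was not called (log2 fold change 0.84, adjusted p = 1). Eye averaged 71264 of miR-181b and 25902 of miR-181a-5p.

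Of the 10 epithelial miRNAs, 4 were higher than the mean, where 24.4% of all miRNAs were, and none was lower, where 13.4% were. With the size factors of DESeq2, with the 11 compared libraries alone and without any 1 of the male gut libraries, 1 member was lower. In these refits 44 to 48 of all 238 miRNAs were lower. MiR-205, a miRNA of skin and corneal epithelium, had 3524 and 3037 in the libraries labelled heart, against 666, 652 and 449.7 in male brain, 359.6, 187 and 203 in male gut and 918, 671 and 710.4 in male liver (log2 fold change 2.76, SE 0.26, adjusted p = 2.58e-07). MiR-203a, which restrains proliferation in epidermis, averaged 356 in the libraries labelled heart and 48.1, 39.3 and 104 in male brain, gut and liver (log2 fold change 2.62, adjusted p = 4.32e-07). Both arms of miR-203b were higher over the mean as well. The 6 members of the miR-200, miR-141 and miR-429 group, which hold epithelial cells in their state, were not called against the mean, were each higher than brain and lower than gut, and miR-141, miR-200a and miR-200c were also lower than liver. Of all miRNAs, 28.6% were higher than brain, 21.8% lower than gut and 18.9% lower than liver. MiR-141 averaged 168 in the libraries labelled heart and 61.3, 1597 and 587 in male brain, gut and liver. Eye averaged 4752 of miR-205 and 494 of miR-203a, above the libraries labelled heart.

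The summed share of the neural miRNAs lay between that of brain and those of gut and liver, while single members did not all do so. Over the mean, 3 of the 18 were higher, 1 was lower and 14 were not called, with a median log2 fold change of 0.33, where 24.4% of all miRNAs were higher and 13.4% lower. With the size factors of DESeq2 and with the 11 compared libraries alone, 3 were higher and 5 lower, and the median was 0.0194 and 0.0415. In these refits 41 and 42 of all 238 miRNAs were higher, in that order, and 48 were lower in each. Without 1 of the male gut libraries, 3 or 4 were lower, where 44 to 47 of all 238 miRNAs were. Against male brain, 16 of the 18 were lower, where 28.2% of all were, and none was higher. Against male gut, 9 were higher and 1 lower, where 26.1% and 21.8% of all were. Against male liver, 12 were higher and none lower, where 28.6% and 18.9% of all were. Their summed share was 4.36% ± 0.361 in the libraries labelled heart (SD, n = 2), against 29.0% ± 2.05 in male brain, 0.385% ± 0.00551 in male gut and 0.318% ± 0.0293 in male liver (SD, n = 3 each), and it was 6.99% ± 0.434 in eye (SD, n = 3).

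MiR-9-5p, a regulator of neural progenitors, had 20802 and 24450 in the libraries labelled heart, against 117382, 146949 and 151829 in male brain, 672, 678 and 646 in male gut and 423, 421 and 435 in male liver. Its call as higher than the mean (log2 fold change 2.73, SE 0.13, adjusted p = 5.65e-13) joined a log2 fold change of -2.62 against brain with 5.09 against gut and 5.73 against liver. Against the arithmetic mean of the 3 tissues, the sign turned, to -1.04 on the log2 scale. MiR-124, the miRNA of differentiated neurons, was with miR-218a 1 of the 2 members that were not called against brain. It had 1544 and 2024 in the libraries labelled heart, against 879.7, 759 and 794 in male brain, 7.76, 13.9 and 4.41 in male gut and 3.95, 3.65 and 6.38 in male liver (log2 fold change 5.79, SE 0.24, adjusted p = 1.02e-16). It was not called over brain (log2 fold change 1.14, adjusted p = 0.212), while both libraries labelled heart lay above the 3 of brain, and eye had 2624, 3768 and 3584. MiR-218a averaged 147 in the libraries labelled heart and 119, 98.7 and 46.9 in male brain, gut and liver, and was not called over the mean (log2 fold change 0.83, adjusted p = 1).

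MiR-137 and miR-128, which act in neurons, averaged 62.1 and 1052 in the libraries labelled heart, 1322 and 19964 in male brain, 215 and 656 in male gut and 80.2 and 695 in male liver. MiR-137 was lower than the mean (log2 fold change -2.20, adjusted p = 9.38e-06), and miR-128 was not called (log2 fold change -0.99, adjusted p = 0.52). In all, 18 miRNAs were lower than male brain and higher than both gut and liver, and 8 of these were called higher over the mean. Besides both arms of miR-9 these were miR-734, miR-724, miR-727-5p, miR-727-3p, miR-2191 and miR-135a, which fall outside the rule for naming and were picked after their values were seen. Against the arithmetic mean, these 6 lay at -2.25, -0.49, -0.70, -0.26, -0.64 and -0.56 on the log2 scale, in the order given. The calls of miR-734, miR-724 and miR-2191 over the mean were lost in 6, 5 and 7 of the 19 refits, among them those without heart replicate 1, without male gut replicate 2 and without male gut replicate 3, and that of miR-2191 also without male gut replicate 1. That of miR-135a was lost in 1, the DESeq2 test, and those of both arms of miR-727 and of miR-9 in none. With male liver left out of the mean, which is not among the 19, the calls of miR-9-5p and both arms of miR-727 were lost.

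Of the 6 endothelial and smooth muscle miRNAs, all were higher than male brain, where 28.6% of all miRNAs were. None was higher than gut or liver, where 26.1% and 28.6% of all were. Over the mean, 2 of the 6 were higher, near the 24.4% of all miRNAs. MiR-126a-5p and miR-126b-5p made up 0.298% and 0.297% of the counts of the libraries labelled heart, and 0.0624% each in male brain. They may be largely the same reads, so the 6 are not 6 separate observations. MiR-126a-3p, which guards vessel integrity, had 5882 and 6060.5 in the libraries labelled heart, against 1074, 969 and 934 in male brain, 3397, 3407 and 3272 in male gut and 3578, 3437 and 3793 in male liver (log2 fold change 1.38, SE 0.10, adjusted p = 3.11e-04). Its call, and that of miR-126b-3p, was lost with the size factors of DESeq2 and without any 1 of the male gut libraries, and that of miR-126b-3p also without either library labelled heart. MiR-143 and miR-145, which belong to smooth muscle, averaged 7313 and 5139 in the libraries labelled heart, 1028 and 692 in male brain, 21611 and 17420 in male gut and 8218 and 6881 in male liver, were lower than gut and were not called against the mean.

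Of the 5 mesenchymal miRNAs, 3 were higher than the mean, where 24.4% of all miRNAs were, and 1 of these calls remained under all 19 refits. The summed share of the list was 1.42% in the libraries labelled heart and 1.12% in eye. It was 0.479% in male brain, 0.382% in male gut and 0.581% in male liver. MiR-214, found in developing muscle and skeleton, had 999 and 1002 in the libraries labelled heart, against 148, 181 and 123 in male brain, 411, 453 and 471 in male gut and 343, 251 and 277 in male liver (log2 fold change 1.90, SE 0.12, adjusted p = 9.03e-08). The cartilage miRNA miR-140-3p averaged 8176 in the libraries labelled heart and 3453, 2448 and 3043 in male brain, gut and liver, and was higher than each, a call against the mean that was lost with the size factors of DESeq2. MiR-199-5p and miR-199-3p, which neighbour miR-214, were not called. Of the erythroid pair, miR-144 was higher than the mean (log2 fold change 1.57, adjusted p = 0.00417), a call lost with the size factors of DESeq2, without male gut replicate 1 or 3 and without heart replicate 2, and miR-451 was not called (adjusted p = 0.123). MiR-451, the miRNA that matures red cells, had 9962 and 11425 in the libraries labelled heart, against 784, 664 and 559.7 in male brain, 13840, 16148 and 8497 in male gut and 14146, 11366 and 7777 in male liver, so that brain alone stood below the others. Of the 8 leukocyte miRNAs, 1 was lower (miR-146a, a brake on innate immune signalling, log2 fold change -1.51, adjusted p = 0.0134) and 7 were not called against the mean, while 6 were lower than gut and 3 higher than brain. Of all miRNAs, 13.4% were lower than the mean, 21.8% lower than gut and 28.6% higher than brain. The leukocyte counts against the mean and against brain lay near these shares. The call of miR-146a was lost with library size alone and without heart replicate 2.

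Of the 23 miRNAs known from growth and stress of the mammalian heart, 3 were higher, none was lower and 20 were not called, where 24.4% of all miRNAs were higher and 13.4% lower, with a median log2 fold change of 0.43 beside 0.20 over all miRNAs. The 3 were miR-27a, miR-23a and miR-24. MiR-27a averaged 1340.0 in the libraries labelled heart and 212, 811 and 503 in male brain, gut and liver (log2 fold change 1.60, adjusted p = 0.00137). With the size factors of DESeq2, only miR-27a of the 3 kept its call and another member was called lower, and miR-27a lost it with the DESeq2 test and without heart replicate 1. MiR-21, which rises in failing mammalian hearts, was the most abundant miRNA in all 4 groups, at 161189 and 166317 in the libraries labelled heart, 172459, 173405 and 173453 in male brain, 321538, 329762 and 314935 in male gut and 255614, 212836 and 206286 in male liver, and was not called (log2 fold change -0.50, adjusted p = 1). MiR-26a averaged 14224 in the libraries labelled heart and 5585, 7367 and 9227 in male brain, gut and liver (log2 fold change 0.97, adjusted p = 0.578).

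The miRNAs that were lower were led by those of gut and liver. All 5 intestinal miRNAs were lower than each of the 3 tissues, where 7.14% of all miRNAs were. The 5 had a median log2 fold change of −10.04, or −9.43 with groups of 3 counts or fewer set at 3 counts. They made up 0.00272% ± 0.000672 of the counts of the libraries labelled heart (SD, n = 2), against 0.0327% ± 0.0142 in male brain, 26.9% ± 1.41 in male gut and 15% ± 1.62 in male liver (SD, n = 3 each). MiR-194a had 9.67 and 7.62 in the libraries labelled heart, against 257, 185 and 105 in male brain, 218644, 207834 and 182523 in male gut and 104345, 90719 and 74143 in male liver (log2 fold change -10.74, SE 0.73, adjusted p = 5.65e-13). MiR-192, its neighbour, averaged 5.82 in the libraries labelled heart and 31.2, 55263 and 23819 in male brain, gut and liver (log2 fold change -9.18, adjusted p = 1.5e-12). MiR-459-5p averaged 5.23 in the libraries labelled heart and 79.3, 73886 and 29576 in male brain, gut and liver (log2 fold change -10.04, adjusted p = 1.43e-14). MiR-459-3p had 1 and 0 counts in the libraries labelled heart, against 4, 3 and 2 in male brain, 9577, 4737 and 1807 in male gut and 3586, 1094 and 831 in male liver.

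The hepatocyte miRNA miR-122 had 6.66 and 2.14 in the libraries labelled heart, against 32.9, 28.2 and 10.1 in male brain, 2355, 2339.6 and 1855 in male gut and 31463, 44970 and 45261 in male liver (log2 fold change -8.15, SE 0.52, adjusted p = 2.07e-13). The 5 intestinal miRNAs stood in male liver at 0.365 to 0.442 of their mean level in male gut, so that both tissues set the mean against which these miRNAs were low. The source of the intestinal miRNAs in male liver was not tested.

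All 10 Hox-cluster miRNAs were lower than the mean, where 13.4% of all miRNAs were, and 9 than each tissue, where 7.14% were. Their median log2 fold change was −5.58, or −5.14 with groups of 3 counts or fewer set at 3 counts. MiR-10c, the most abundant, had 786 and 1289 in the libraries labelled heart, against 21471, 16860 and 15856 in male brain, 122633, 122043 and 95534 in male gut and 70386, 45926 and 35661 in male liver (log2 fold change -5.50, SE 0.35, adjusted p = 2.96e-13), and 222, 222 and 229.6 in eye. MiR-10a-5p averaged 8.69 in the libraries labelled heart and 631, 7939.5 and 2642 in male brain, gut and liver (log2 fold change -8.08, adjusted p = 4.44e-14), and miR-10b averaged 12.4, against 64.6, 516 and 207 (log2 fold change -3.94, adjusted p = 1.9e-09). The exception was miR-196a, with 19.9 and 14.7 in the libraries labelled heart, against 5.37, 5.26 and 6.76 in male brain, 2763, 2648 and 2396 in male gut and 1660.1, 627 and 675 in male liver. It was lower than gut and liver and above every brain library without a call (log2 fold change 1.51, adjusted p = 0.0826). MiR-196d had 1 and 3 counts and miR-10a-3p none in the libraries labelled heart, where their gut libraries had 1483, 657 and 359 and 84, 37 and 16. The summed share of the list was 0.131% ± 0.0396 in the libraries labelled heart (SD, n = 2), against 2.02% ± 0.420 in male brain, 9.87% ± 0.739 in male gut and 5.58% ± 1.62 in male liver (SD, n = 3 each).

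**Figure D5:**
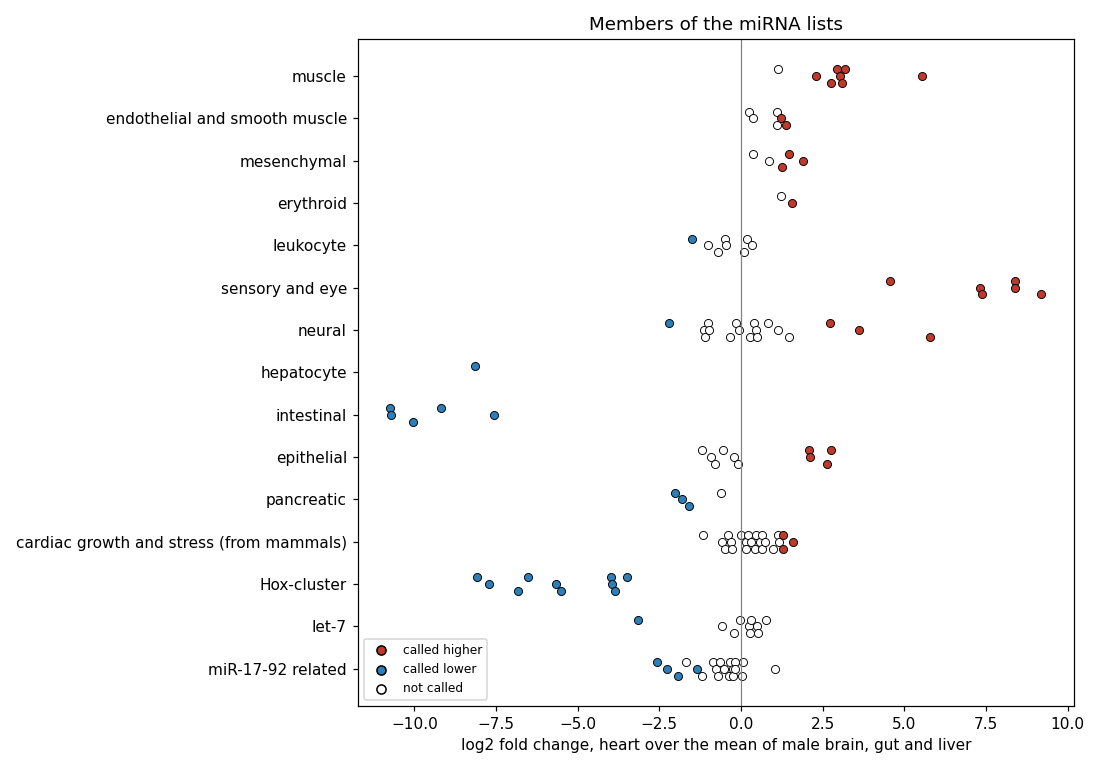
Log2 fold change in the libraries labelled heart over the mean of male brain, gut and liver (horizontal) of each member of 15 lists of miRNAs (rows, each spread vertically for legibility only); filled points were called and open points were not. All 6 sensory and eye miRNAs and 7 of 8 muscle miRNAs were higher, and all 5 intestinal, all 10 Hox-cluster and the single hepatocyte miRNA were lower, while 1 of the 10 let-7 miRNAs, let-7i, and 3 of the 23 from growth and stress of the mammalian heart were called. Of all 238 miRNAs, 24.4% were higher and 13.4% lower.

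MiR-7a and let-7i were far below brain, and were below gut and liver as well. MiR-7a, known from neurons and endocrine cells, had 4.12 and 4.27 in the libraries labelled heart, against 565, 531 and 742 in male brain, 43.9, 45.0 and 36.4 in male gut and 44.4, 25.6 and 17.3 in male liver (log2 fold change -4.45, SE 0.28, adjusted p = 1.07e-12). Let-7i was the only 1 of the 10 let-7 miRNAs to be called against the mean, and against brain let-7f was also called, as higher (log2 fold change 1.41, adjusted p = 0.00231). Of all miRNAs, 24.4% were higher and 13.4% lower than the mean, and 28.6% were higher and 28.2% lower than brain. Let-7i had 299 and 285 in the libraries labelled heart, against 16006, 17929 and 18382 in male brain, 896, 884 and 887 in male gut and 1176, 1159 and 1103 in male liver (log2 fold change -3.16, SE 0.14, adjusted p = 6.74e-15). MiR-7a and let-7i were both lower than each tissue and overlapped with none. Let-7a, the second most abundant miRNA of the libraries labelled heart, averaged 112530 there and 69670, 85098 and 124830 in male brain, gut and liver (log2 fold change 0.32, adjusted p = 1).

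Of the 4 pancreatic miRNAs, 3 were lower than the mean, where 13.4% of all miRNAs were. None was called against brain, where 28.6% of all were higher and 28.2% lower. MiR-217, made by acinar cells, averaged 118 in the libraries labelled heart and 75.8, 1074 and 848 in male brain, gut and liver (log2 fold change -1.80, adjusted p = 0.000123), and miR-375, of islet and other endocrine cells, averaged 264, against 267, 1600.3 and 1171 (log2 fold change -1.58, adjusted p = 0.0209), a call lost with library size alone and without male brain replicate 1 or heart replicate 2. Of the 20 miRNAs related to the miR-17-92 cluster, which acts in proliferation, 4 were lower, where 13.4% of all miRNAs were, and 16 were not called. With the size factors of DESeq2 and with the 11 compared libraries alone, 6 were lower, where 48 of all 238 miRNAs were in each refit. MiR-92a, from the cluster itself, had 32058 and 34576 in the libraries labelled heart, against 52143, 59123 and 59579 in male brain, 95512, 100905 and 96862 in male gut and 104169, 112980 and 103701 in male liver (log2 fold change -1.34, SE 0.15, adjusted p = 0.00893), a call that was lost with library size alone. The other 3, miR-363, miR-20b and miR-18c, were highest in male liver, at 136, 220.1 and 100.2, where the libraries labelled heart had 3.87, 7.30 and 4.34 in the same order, and none of them was called against brain.

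MiRNA genes that lie next to each other are often transcribed together, a property that the comparison did not use. By their names, 244 of the 247 miRNAs were matched to genes of the RefSeq annotation of the GRCz12tu assembly, which is not the build of the files, and neighbours were taken as genes within 10 kb. MiR-183, miR-96 and both arms of miR-182 were neighbours and all higher, as were miR-1 with both arms of miR-133a, and miR-206 with miR-133c. At another locus miR-206 neighbours both arms of miR-133b, of which miR-133b-5p was not called. MiR-192 and miR-194a were neighbours and both lower, as were miR-363, miR-20b and miR-18c together with miR-19c, which was not called (log2 fold change -0.86), and miR-216b and miR-217 with miR-216a, which was not called either (log2 fold change -0.62). Of 47 sets of neighbours, some of which share a miRNA, 6 had all members called higher and 1 all lower, 12 had members called higher beside members not called, such as miR-144 with miR-451, 4 had members called lower beside members not called, 24 had no member called, and none had calls in both directions. Of all 238 miRNAs, 24.4% were higher and 13.4% lower. The tallies of sets are a description, since some sets share a miRNA and near-identical miRNAs may share reads. Both arms were counted for 34 hairpins. Both were called for 9 of them, in 1 direction in each case, which is a description since the arms come from 1 precursor. For miR-181a only the 5p arm was called, and the difference between its arms was not tested.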

How the data were processed

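Adaptors were trimmed with cutadapt. The authors obtained raw counts per mature miRNA of miRBase with the quantifier of miRDeep2 and deposited them without scaling. The submitters' processing notes name CASAVA 1.8.2, cutadapt and edgeR. A second deposited table is a TMM-normalized signal, each library's counts times 1 factor, and the TMM factors computed here gave the same scaling. TMM assumes that most miRNAs do not change, and the quantifier can assign a read to several related miRNAs.

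All 32 libraries entered 1 quasi-likelihood fit in edgeR 4.0.16 (R 4.3.3), with a coefficient for each group. Contrasts were tested by glmTreat at a log2 threshold of 1, with Benjamini-Hochberg adjustment across the 238 miRNAs that had a count, and 0.05 was the limit for a call. SEs were taken from the quasi-likelihood F statistic. Means and SDs are of deposited normalized counts. A group with at most 3 counts in every library was taken as at the floor, and no fold is given against it. A count of 3 is 2.56e-05% to 0.000306% of a library's total, a limit for counting error only, since PCR copies were not told apart. The steps were run on simulated counts in which all groups shared the same mean profile except for 40 miRNAs changed in heart. The real tissues differ far more widely, so that run does not bear on the choice of scaling.

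A miRNA could be named if it was on a list, among the 15 higher or 15 lower with the largest change and no overlap, higher or lower than each tissue, among the 10 most abundant of heart or the 5 most abundant of a tissue, or the other arm of a named hairpin. MiRNAs and lists were chosen with earlier results of these data known. Alternatives were other scalings, a filter, the 11 compared libraries alone, the likelihood ratio test, a threshold after the test, DESeq2 1.42.0, the replicate number as a block, an adjusted p of 0.01, each tissue left out of the mean, the arithmetic mean, and each library left out. Replicate numbers come from the labels, which do not say that they mark shared fishes. Eye was in the fit and in none of the contrasts that gave calls against brain, gut, liver or their mean. It was also set against that mean and against the libraries labelled heart, beside the main comparison. Its levels are given for some of the named miRNAs only. Mature sequences were not used here.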

Additional observations from a re-analysis of the deposited data

How the results depend on the processing

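The counts of miRNAs called in the libraries labelled heart depended mainly on the scaling. Higher than the mean were 58, against 37 with the DESeq2 test. Lower than the mean were 32, against 50 with male brain left out of the mean, and 48 both with the size factors of DESeq2 and with the 11 compared libraries alone. Higher than male brain were 68, against 45 with the size factors of DESeq2, 46 with the 11 libraries alone and 39 with the DESeq2 test, and higher than male gut were 62, against 100 with library size alone. With size factors 46.1% of the calls against the mean were higher, with library size alone 73.3%, and as reported 64.4%. Leaving out 1 library gave 41 to 67 higher than the mean and 30 to 47 lower, 43 to 67 higher than male brain and 64 to 83 lower, 57 to 68 higher than male gut and 49 to 55 lower, 61 to 78 higher than male liver and 39 to 55 lower, and 16 to 26 higher and 15 to 21 lower than each. The count higher than male brain was 43 without any 1 of the male gut libraries and 45 without heart replicate 1, and the scale moved with them, by a median of −0.51 against brain without male gut replicate 1. With dre-miR-21 left out of the denominator, the muscle list took 1.34%, the sensory and eye list 17.2%, the intestinal list 0.0034% and the neural list 5.44% of the counts of the libraries labelled heart.

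Against the arithmetic mean of the 3 tissues the sign turned for dre-miR-9-5p (-1.04), dre-miR-734 (-2.25), dre-miR-724 (-0.49), dre-miR-727-5p (-0.70), dre-miR-727-3p (-0.26), dre-miR-2191 (-0.64) and dre-miR-135a (-0.56), since male brain is far above gut and liver for these. Dre-miR-10a-3p has no such value, as its count in the libraries labelled heart was 0. All 7 muscle, 6 sensory and eye, 5 intestinal and 10 Hox-cluster calls against the mean remained under all 19 refits. So did the 4 neural, 4 epithelial, 1 hepatocyte and 1 let-7 calls. The endothelial and smooth muscle list kept 0 of 2, mesenchymal 1 of 3, erythroid 0 of 1 and leukocyte 0 of 1. The pancreatic list kept 2 of 3, growth and stress 0 of 3 and miR-17-92 3 of 4. Of all calls, 37 of the 58 higher and 28 of the 32 lower remained.

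Deviations of same-numbered libraries from their group means correlated weakly across the 4 groups. The correlations of 15 pairs lay between −0.27 and 0.20, and 3 were over 0.1. The 2 libraries labelled heart deviate by opposite amounts, so the pairs that hold them are not separate. Whether same-numbered libraries share fishes is not shown by these values. With the replicate block, 56 miRNAs were higher and 33 lower than the mean, 24 higher and 17 lower than each tissue.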
